A study of Canis lupus familiaris with 8 samples.

Results

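Genes of fatty acid use, lipid storage and ketone body metabolism were examined in the left ventricle of dogs with alloxan-induced diabetes (DM) and of control dogs. The rule took members by gene name and used no measured value, but it was drawn up with earlier results of these data known. A probe set, the group of short probes that the array uses to read a transcript, was a member when the annotation of the array gave it exactly 1 gene symbol and that symbol named a fatty acid uptake or binding protein, an acyl-CoA synthetase, a carnitine palmitoyltransferase, an enzyme of beta oxidation, an acyl-CoA thioesterase, a ketone body enzyme, an enzyme of malonyl-CoA or fatty acid synthesis, a perilipin, hormone-sensitive lipase, an uncoupling protein or a member of the PPAR family. This gave 102 probe sets among 23836 tested, of which 10549 carried 1 symbol, and 49 genes of 6540 with such a probe set. CPT1B and OXCT1 were not analysed here.

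RNA was taken from left ventricular tissue of 4 DM dogs (0292, 0294, 1087 and 1111) and 4 control dogs (D5, D6, D7 and D8) and hybridized to Affymetrix Canine Genome Arrays, with 1 array for each dog. All were male mongrel dogs that had been instrumented for hemodynamic recordings. The DM dogs had been given intravenous alloxan, which destroys the pancreatic beta cells that make insulin, at 40 to 60 mg/kg, in some dogs more than once, and were killed 4 weeks later. Only dogs that were hyperglycemic after fasting had entered the DM group, the dose of each dog and its age were not given, and the effect of alloxan on the heart cannot be told apart from that of diabetes. Below, values of single dogs stand in the order 0292, 0294, 1087, 1111 for DM dogs and D5, D6, D7, D8 for control dogs.

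Heart muscle draws much of its energy from long-chain fatty acids, which lipoprotein lipase frees from circulating triglycerides, CD36 helps to bring into the cell and heart-type fatty acid binding protein carries through the cytosol. The fatty acids are activated to acyl-CoA, passed into mitochondria by the carnitine shuttle and shortened by beta oxidation, a cycle of dehydrogenase, hydratase, dehydrogenase and thiolase steps whose electrons reach the respiratory chain partly through the electron transfer flavoprotein. PPAR alpha and its coactivator PGC-1 alpha switch on many of these genes, malonyl-CoA holds back the carnitine shuttle, and insulin restrains the release of fatty acids from fat tissue.

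The values are normalized signals on a log2 scale, and a log2 fold change is the DM mean minus the control mean. An offset was added to every signal before log2 was taken, so fold changes of dim probe sets are understated. Measures of the arrays themselves moved with the groups in part. The mean deposited log2 signal of 18 probe sets for hybridization controls, transcripts spiked into every sample in fixed amounts, was 15.17 to 17.72 in DM dogs and 13.09 to 15.77 in control dogs, with 15.77 in D8 and at most 13.36 in the other control dogs (exact permutation test, two-sided p = 0.0571). The 3 prime minus 5 prime difference of the actin probe sets, a sign of RNA integrity that is larger in degraded RNA, was 6.02, 5.62, 3.59 and 7.71 log2 in DM dogs, against 1.69, 1.35, 3.04 and 7.79 log2 in control dogs (exact permutation test, two-sided p = 0.229). D8 again read like the DM dogs. The same difference for GAPDH ran the other way, at a mean of 1.92 log2 in DM dogs and 3.60 log2 in control dogs (p = 0.171 by the same exact test), with 6.08 in D8. The median deposited signal of an array was 113 to 317 in DM dogs and 96.1 to 177 in control dogs (exact p = 0.114). The part of these measures in the results was not tested. Values spread more widely in DM dogs, with a median SD over the members of 1.18 in DM dogs and 0.588 in control dogs. Of the heart muscle markers, MYH7, the slow myosin heavy chain, had a mean of 15.93 in DM dogs and 16.42 in control dogs, whereas MYL3, a ventricular myosin light chain, had 6.93 in DM dogs and 11.18 in control dogs, with 5.96 in D8. The design text of the series gives 6 diabetic and 7 normal dogs, and 4 of each were analysed here. No array batch is named in the sources used here, but the records of DM and control arrays are numbered in separate runs and titled in different styles, so a batch and the groups cannot be told apart.

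Most members had lower values in DM dogs. Of the 102 probe sets, 70 had a lower DM mean, a direction that 48.1% of all tested probe sets shared, and the median log2 fold change was -0.49 over the members and 0.06 over all tested probe sets. Taking the brightest probe set of each gene, 35 of 49 genes were lower and the median was -0.43. No member had an adjusted p under 0.05 (limma with Benjamini-Hochberg adjustment, 0 of 102, with 0.0168% of all tested probe sets past that threshold). At an unadjusted p under 0.05, 24 members were lower in DM dogs, where 8.97% of all tested probe sets were, and 6 were higher, where 7.79% were. These counts were 31 and 2 with each array centred on its median, where 13.4% and 4.14% of all tested probe sets were lower and higher. They were 71 and 0 with each array scaled to its hybridization controls. That scale moved the median of all tested probe sets to -1.65, so its counts hold a shift common to the arrays. They cannot be read on their own as a result about the members.

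The overlap of the groups gave a similar picture. Every DM dog lay below every control dog in 22 members, against a background of 5.87% of all tested probe sets, and above every control dog in 4 members, against 4.93%. The methods of the study ask for P at most 0.01 in a two-class test and a change of at least 2-fold. By these criteria 11 members were lower in DM dogs, against a background of 2.48%, and 3 were higher, against 2.44%. The count of 11 was 7 without dog 0292, 6 without 1087, 4 without D5, 5 without D6 and 7 without D7, and the count of 4 was 8 without 0292. Leaving out DM dog 1111 gave 5 members an adjusted p under 0.05, and leaving out control dog D8 gave 2. The shares of all tested probe sets with these dogs left out are not given here. The counts with dogs left out therefore do not by themselves set the members apart.

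**Figure D1:**
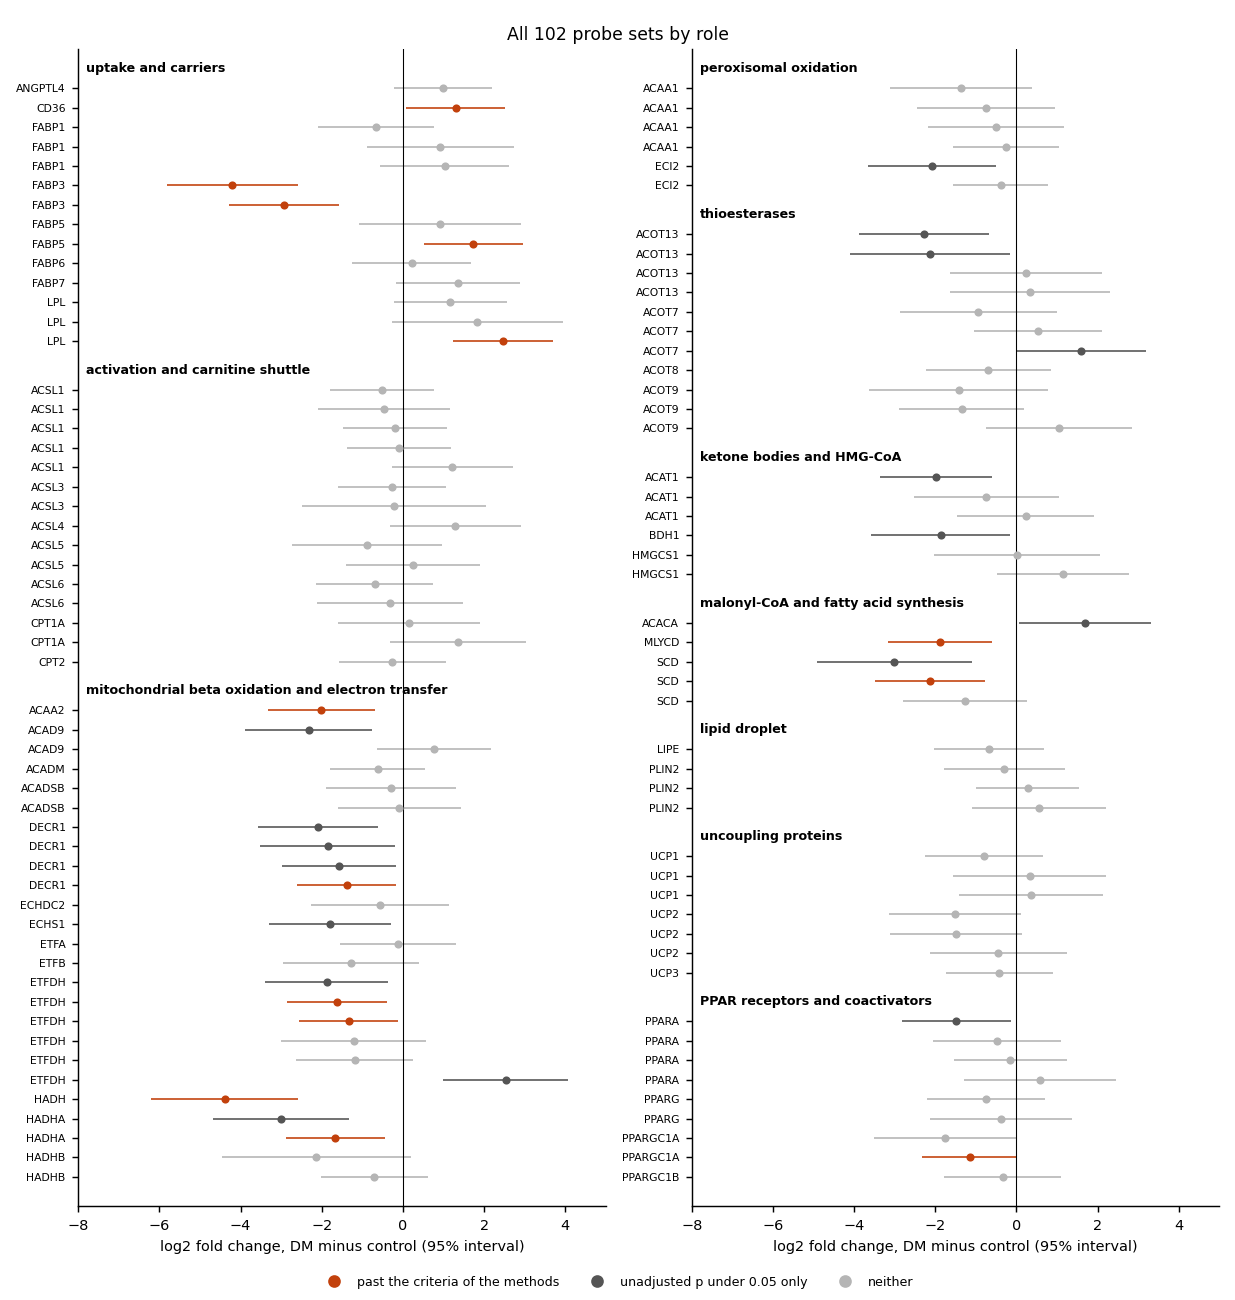
Log2 fold change, DM minus control, with its 95% interval for each of the 102 probe sets, grouped by role and labelled by gene. The 25 probe sets of mitochondrial beta oxidation and electron transfer lie mostly to the left, with 23 below 0, while 11 of the 14 of uptake and carriers lie above 0 in this normalization and 2 of 14 when the arrays are scaled to their hybridization controls.

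Members called lower at an unadjusted p under 0.05 were concentrated among bright probe sets. With all tested probe sets divided into 5 equal classes by their mean signal over the 8 dogs, 38 members fell in the brightest class. Of these, 20 were lower in DM dogs at an unadjusted p under 0.05, which is 52.6%, while 17.4% of all probe sets in that class were. The median log2 fold change in that class was -1.46 over the members and -0.26 over all its probe sets. In the class next to it, 2 of 21 members were lower (9.52%, with 12.5% of all its probe sets). The members of the 3 dimmer classes numbered 43, of which 2 were lower and 3 higher at that p. Of all probe sets, 1.28%, 4.93% and 8.66% were lower in these classes, from the dimmest up, and 7.86%, 10.2% and 7.05% were higher. The median log2 fold change of the members in these classes was -0.57, -0.48 and -0.31, in the same order. Over all probe sets of these classes it was 0.47, 0.35 and -0.07. In the class next to the brightest, the median was -0.23 over the members and -0.36 over all probe sets.

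**Figure D2:**
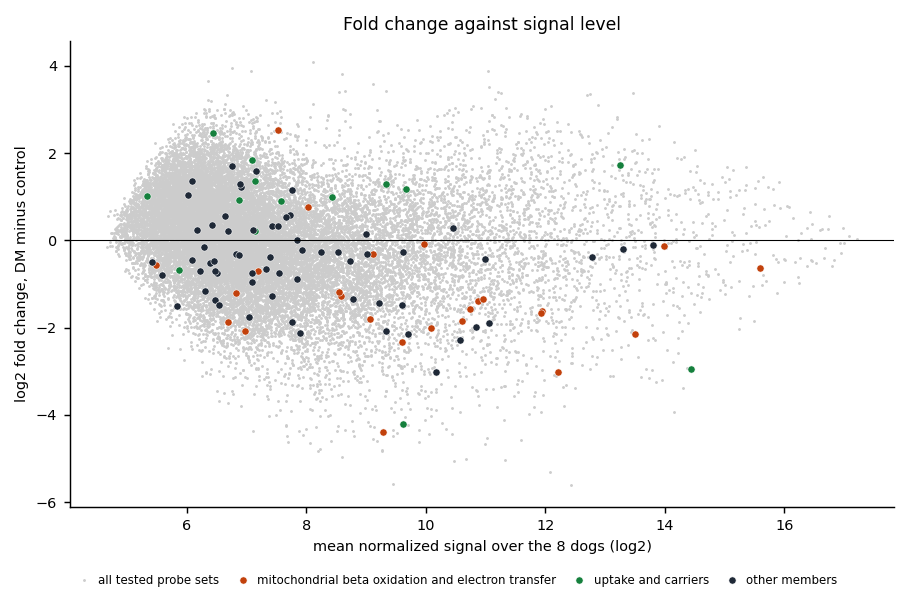
Log2 fold change, DM minus control, against the mean normalized log2 signal over the 8 dogs, with all tested probe sets in grey and members in colour. Members of mitochondrial beta oxidation and electron transfer sit below 0 at high signal. All 16 of them in the brightest class had lower DM means, with a median of -1.65, against -0.26 over all its probe sets.

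Fatty acid uptake and binding had higher DM means in 11 of 14 probe sets and lower ones in 3, in this normalization. Of all 23836 tested probe sets, 12371 had higher DM means. FABP3, the heart-type fatty acid binding protein of the cardiomyocyte cytosol, had much lower values in DM dogs. Its probe set 1596802_at read 5.66, 8.67, 8.20 and 7.54 in DM dogs, against 12.04, 12.58, 11.73 and 10.54 in control dogs. The groups did not overlap, and the DM mean was 18.5-fold lower, a log2 fold change of -4.21 (SE 0.75, limma adjusted p = 0.0606). The brighter probe set 1584680_s_at read 13.98, 12.67, 11.76 and 13.46 in DM dogs, against 16.00, 16.08, 16.13 and 15.42 in control dogs, again with no overlap. Its log2 fold change was -2.94 (SE 0.63, limma adjusted p = 0.0727), and FABP3 was lower in all scalings of the arrays. Without DM dog 1111 the adjusted p values were 0.0397 for 1596802_at and 0.0448 for 1584680_s_at. Over all alternatives tried, the limma adjusted p of 1596802_at reached 0.278.

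FABP5, the epidermal-type fatty acid binding protein, which is known from skin, macrophages, fat and endothelium, differed in the other direction. Probe set 1596783_s_at read 13.48, 14.45, 14.49 and 14.07 in DM dogs, against 11.89, 12.21, 12.51 and 12.95 in control dogs. The groups did not overlap, with a log2 fold change of 1.74 (SE 0.57, limma adjusted p = 0.161), which became -0.64 when the arrays were scaled to their hybridization controls. Its dimmer probe set 1604791_at had a log2 fold change of 0.91 (SE 0.93) with overlapping groups.

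The signals of these binding proteins can be set against each other within an array, where a factor common to the whole array cancels. The log2 signal of FABP3 (1584680_s_at) minus that of FABP5 (1596783_s_at) was 0.50, -1.78, -2.74 and -0.61 in DM dogs, against 4.11, 3.88, 3.62 and 2.47 in control dogs. On the deposited signals, with no quantile normalization or offset, the same difference was 0.66, -2.33, -3.21 and -0.64 in DM dogs, against 2.72, 2.22, 2.30 and 2.81 in control dogs. The pair was chosen after its values were seen, so no test is given. The difference shows unequal change between these probe sets, and the level of a probe set cannot be compared with that of another.

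LPL, the lipoprotein lipase that frees fatty acids from triglycerides at the vessel wall, had higher values with all 3 of its probe sets. Probe set 1583006_at read 8.40, 7.60, 7.55 and 7.13 in DM dogs, against 5.66, 4.98, 5.32 and 4.83 in control dogs. The groups lay well apart, with a log2 fold change of 2.47 (SE 0.57, limma adjusted p = 0.0861, and 0.0491 without dog 1111). Over all alternatives tried, the limma adjusted p reached 0.408, and the direction held with the hybridization controls as scale (0.89). The control values of this probe set lay among the dimmest signals of the array. The brightest LPL probe set, 1606032_at, read 9.21, 11.20, 9.99 and 10.59 in DM dogs, against 8.76, 8.84, 8.58 and 10.12 in control dogs. Here D8 overlapped the DM dogs, and the log2 fold change was 1.17 (SE 0.64, limma adjusted p = 0.382) and -1.03 on the scale of the hybridization controls.

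CD36, the fatty acid translocase, read 9.56, 10.30, 10.47 and 9.59 in DM dogs, against 8.37, 9.27, 8.58 and 8.47 in control dogs. All DM dogs were above all control dogs, though D6 came close to 0292 and 1111. The log2 fold change was 1.30 (SE 0.57, limma adjusted p = 0.268), and -1.06 with the hybridization controls as scale. ANGPTL4, a secreted inhibitor of lipoprotein lipase and a target of the PPARs, read 9.18, 8.23, 9.11 and 9.15 in DM dogs, against 7.77, 7.83, 8.33 and 7.79 in control dogs. DM dog 0294 fell just below control dog D7, and the log2 fold change was 0.99 (SE 0.56, limma adjusted p = 0.392), or -0.96 with the hybridization controls as scale.

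The binding proteins FABP1, FABP6 and FABP7, known from liver, ileum and brain, had mean signals of 5.33 to 7.14 over the 8 dogs. The brightest FABP1 probe set, 1583025_s_at, read 7.49, 7.33, 6.82 and 7.67 in DM dogs, against 4.98, 5.24, 6.26 and 9.13 in control dogs. D8 was higher than every DM dog while the other control dogs were lower, and the log2 fold change was 0.92 (SE 0.84, limma adjusted p = 0.614), and 1.82 without D8. FABP6 and FABP7 had log2 fold changes of 0.22 (SE 0.68) and 1.36 (SE 0.71) with overlapping groups.

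**Figure D3:**
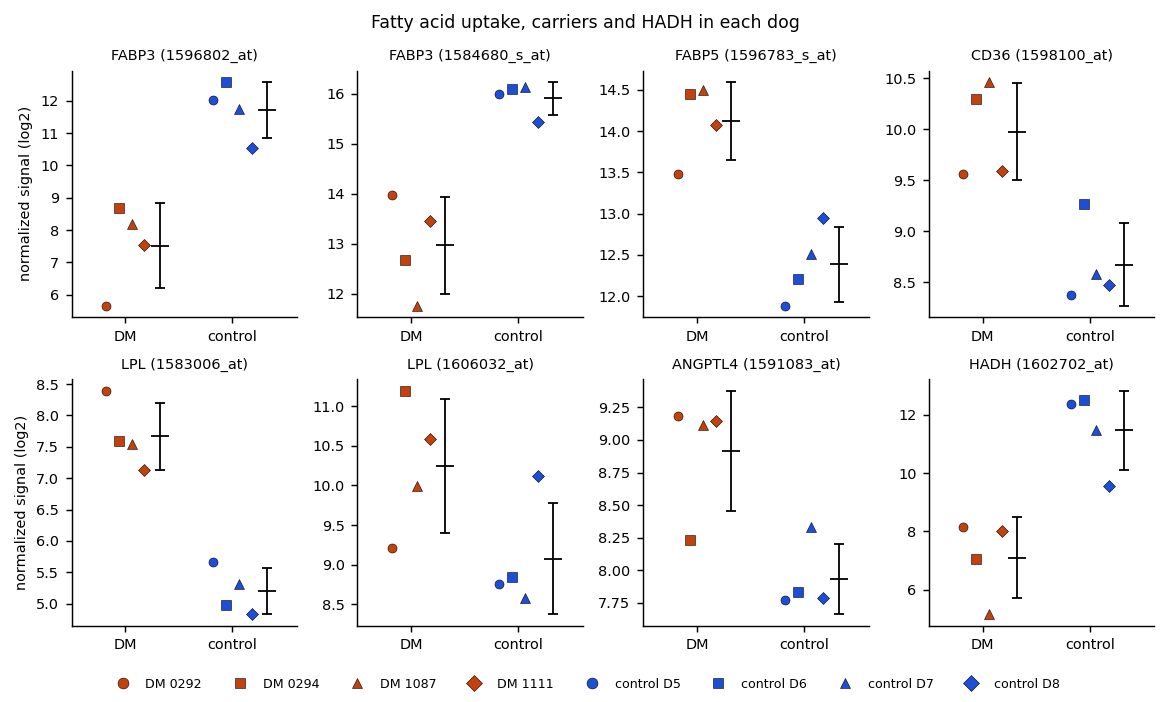
Normalized log2 signal of 8 probe sets in each dog, DM dogs left and control dogs right, with the mean and SD of each group beside the points. FABP3 and HADH are lower in every DM dog than in any control dog, and FABP5, CD36 and LPL 1583006_at are higher, although FABP5, CD36, ANGPTL4 and LPL 1606032_at turn lower when the arrays are scaled to their hybridization controls.

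In bulk tissue, fewer cells of a type and less RNA per cell cannot be told apart, and markers of cardiomyocytes had lower values in the same dogs as the oxidation genes. All 13 cardiomyocyte markers measured had lower DM means, 10 of them at an unadjusted p under 0.05, with a median log2 fold change of -1.92. Each was read with its brightest probe set, and all lay in the brightest class. Of all 4767 probe sets in that class 2742 were lower, and 17.4% were lower at that p. The summed signal of the markers was 17.09 to 18.04 log2 in DM dogs and 18.31 to 19.28 log2 in control dogs (exact permutation test, two-sided p = 0.0286, the smallest that 4 dogs against 4 allow). In the other 4 scalings 10 to 13 of the 13 were lower, and the summed signals of the groups stayed apart under cyclic loess only. The markers differed among themselves, with -0.48 for MYH7 (SE 0.54) and -5.03 for MB, the oxygen store myoglobin (SE 0.84).

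Markers of macrophages and monocytes differed in the other direction. Of 8 measured, 6 were higher and 2 lower, with 2 higher at an unadjusted p under 0.05, where 7.79% of all tested probe sets were. The summed signal of the 8 was 14.24 to 16.23 log2 in DM dogs and 12.25 to 13.37 log2 in control dogs (exact permutation test, two-sided p = 0.0286). On the scale of the hybridization controls 7 of the 8 were lower and the sums overlapped. LYZ, the lysozyme that carries much of this sum, had a log2 fold change of 3.37 (SE 0.67). Of the adipocyte markers outside the members, 4 were measured, with 3 higher and 1 lower in DM dogs. Their summed signal overlapped between the groups, at 8.23 to 10.87 log2 in DM dogs and 8.64 to 9.81 log2 in control dogs (exact permutation test, two-sided p = 0.343). The lower one was ADIPOQ, which defines adipocytes, with means of 5.57 in DM dogs and 6.68 in control dogs. On the scale of the hybridization controls all 4 were lower. Of 6 endothelial markers, 2 were higher and 4 lower. Their summed signal overlapped, at 13.30 to 16.14 log2 in DM dogs and 14.56 to 15.34 log2 in control dogs (exact permutation test, two-sided p = 0.743). The sums of fibroblast and of smooth muscle markers overlapped too (p = 0.971 and 0.343 by the same exact test). LPL, CD36 and FABP5 are known from macrophages as well as from muscle, fat or endothelium, and the part of any of these cells in the member values was not tested.

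**Figure D4:**
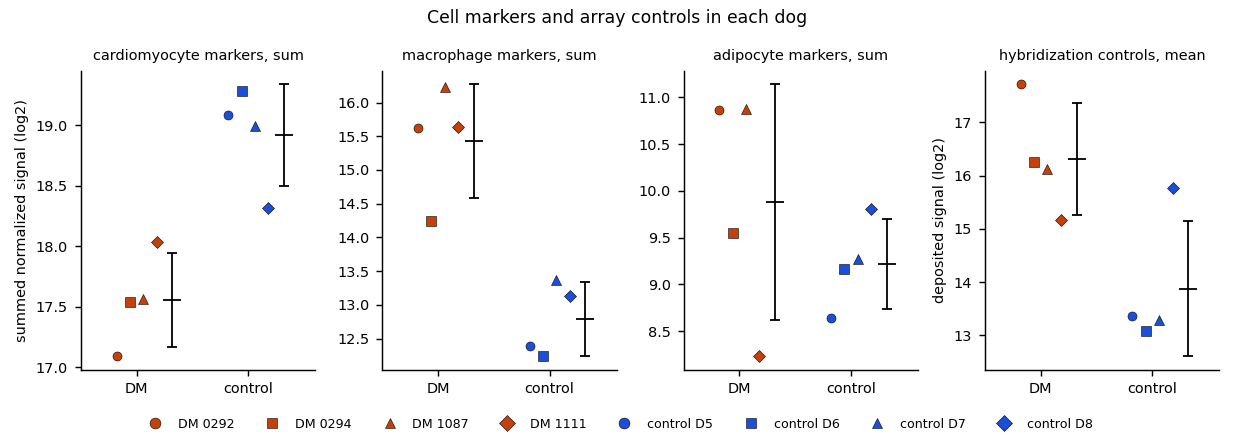
Summed normalized log2 signal of cardiomyocyte, macrophage and adipocyte markers, and mean deposited log2 signal of the hybridization controls, in each dog, DM dogs left and control dogs right with the mean and SD of each group. Cardiomyocyte markers are lower in all DM dogs (17.09 to 18.04) than in all control dogs (18.31 to 19.28), macrophage markers are higher in this normalization (14.24 to 16.23 in DM dogs and 12.25 to 13.37 in control dogs), with overlap of both sums on the scale of the hybridization controls, and D8 stands among the DM dogs in the hybridization controls.

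Activation and the carnitine shuttle showed little difference. Of 15 probe sets, 5 were higher and 10 lower in DM dogs, 0 at an unadjusted p under 0.05, with a median log2 fold change of -0.23. ACSL1, the main acyl-CoA synthetase of heart, had 5 probe sets, and the brightest of them, 1593627_s_at, read 12.79, 14.33, 13.88 and 13.97 in DM dogs, against 13.59, 13.85, 13.44 and 14.53 in control dogs. The groups overlapped almost completely, with a log2 fold change of -0.11 (SE 0.59). The smallest p in the role belonged to another ACSL1 probe set, the dim 1598975_at, which read 6.75, 7.59, 8.86 and 6.86 in DM dogs, against 7.66, 6.06, 5.62 and 5.84 in control dogs, a log2 fold change of 1.22 (SE 0.69, limma adjusted p = 0.397) that became -0.55 with the hybridization controls as scale.

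CPT2, the carnitine palmitoyltransferase of the inner mitochondrial membrane, read 8.20, 10.23, 9.99 and 9.51 in DM dogs, against 9.56, 10.10, 9.44 and 9.87 in control dogs. Its log2 fold change of -0.26 (SE 0.62, 95% interval -1.59 to 1.07) rested on dog 0292, the only DM dog below all control dogs, and was 0.18 without it. CPT1A, the liver form of the outer membrane enzyme, had log2 fold changes of 1.36 (SE 0.78) and 0.14 (SE 0.81) with its 2 probe sets. The other synthetases ACSL3, ACSL4, ACSL5 and ACSL6 ranged from -0.88 to 1.29 with SEs of 0.62 to 1.05, and none separated the groups.

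Mitochondrial beta oxidation and electron transfer held 13 of the 24 members that were lower in DM dogs at an unadjusted p under 0.05. Of 25 probe sets of 13 genes, 23 were lower in DM dogs, where 48.1% of all tested probe sets were. The median log2 fold change was -1.39. At that p 1 probe set was higher. In the brightest class all 16 probe sets were lower and 11 passed that p. Of all 4767 probe sets in that class 2742 were lower, and 17.4% were lower at that p. In the dimmer classes 7 of 9 members of the role were lower and 2 passed. The role stayed lower in every scaling, with medians of -1.15 to -3.68, against medians of all probe sets of 0.02 and -1.65 in the same scalings.

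HADH, the 3-hydroxyacyl-CoA dehydrogenase of medium- and short-chain substrates, showed the largest difference among all members. It read 8.15, 7.04, 5.15 and 8.03 in DM dogs, against 12.37, 12.51, 11.47 and 9.56 in control dogs. The groups did not overlap and the DM mean was 20.9-fold lower, a log2 fold change of -4.39 (SE 0.84, limma adjusted p = 0.0606). On the deposited scale, without quantile normalization, the signals were 565, 140, 20.3 and 180 in DM dogs, against 5840, 5968, 3147 and 676 in control dogs. D8 was the lowest control dog on both scales. The limma adjusted p was 0.0376 without DM dog 1111 and 0.0281 without D8, and it reached 0.278 over all alternatives tried.

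HADHA, the alpha subunit of the mitochondrial trifunctional protein that handles long-chain substrates, was lower with both probe sets. Probe set 1592482_at read 10.60, 10.94, 11.03 and 11.79 in DM dogs, against 12.89, 13.22, 12.46 and 12.48 in control dogs, a log2 fold change of -1.67 (SE 0.57, limma adjusted p = 0.171). The other, 1592483_at, read 8.96, 10.50, 10.56 and 12.79 in DM dogs, against 13.73, 14.61, 13.45 and 13.04 in control dogs, a log2 fold change of -3.01 (SE 0.78, limma adjusted p = 0.100, and 0.0319 without dog 1111). Neither overlapped between the groups. The limma adjusted p of 1592482_at reached 0.441 over all alternatives tried. HADHB, the beta subunit, gave -2.14 (SE 1.08) with its bright probe set 1598038_s_at, where dog 0292 read 8.27 and the other DM dogs 13.60 to 14.27, against 14.28 to 14.85 in control dogs.

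ACAA2, the thiolase that ends the cycle, read 8.91, 8.20, 9.32 and 9.86 in DM dogs, against 11.14, 11.88, 10.63 and 10.67 in control dogs. The DM dogs all lay below the control dogs, with a log2 fold change of -2.01 (SE 0.61, limma adjusted p = 0.137). ECHS1, the short-chain enoyl-CoA hydratase, gave -1.80 (SE 0.70), with D8 inside the DM range. DECR1, the reductase needed for unsaturated fatty acids, was lower with all 4 of its probe sets, at -1.39 to -2.08, each at an unadjusted p under 0.05.

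The acyl-CoA dehydrogenases were less uniform. ACADM, the medium-chain enzyme, whose signal lay near the top of the scale, read 14.71, 15.49, 15.31 and 15.58 in DM dogs, against 15.80, 15.97, 15.91 and 15.92 in control dogs. The groups did not overlap, but the difference was small at -0.62 (SE 0.54, limma adjusted p = 0.596) and turned to 0.56 without quantile normalization. ACAD9, which also serves the assembly of respiratory complex I, gave -2.32 (SE 0.72) with 1584761_at and 0.76 (SE 0.66) with 1588436_at. ACADSB, the dehydrogenase of branched short chains, gave -0.09 and -0.30 with overlapping groups.

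Electrons of these dehydrogenases pass through the flavoprotein ETFA and ETFB to ETFDH, its ubiquinone oxidoreductase. ETFDH had 6 probe sets, and the brightest, 1592755_s_at, read 11.46, 10.57, 10.90 and 11.62 in DM dogs, against 13.10, 13.09, 12.76 and 12.10 in control dogs, a log2 fold change of -1.63 (SE 0.57, limma adjusted p = 0.185) with no overlap. Another 4 were lower at -1.19 to -1.88. The remaining one, 1595599_at, was higher in every DM dog, at 7.75, 9.77, 8.40 and 9.25, against 7.57, 5.60, 6.81 and 5.07 in control dogs, a log2 fold change of 2.53 (SE 0.72, limma adjusted p = 0.119). ETFDH was thus the only member gene with calls at an unadjusted p under 0.05 in both directions, and which of its transcripts each probe set reads was not tested. ETFA, which averaged 13.93 in DM dogs and 14.05 in control dogs, gave -0.12 (SE 0.66), and ETFB gave -1.28 (SE 0.78), both with overlapping groups.

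Peroxisomal oxidation was represented by ACAA1, the peroxisomal thiolase, and ECI2, an enoyl-CoA isomerase. All 6 probe sets were lower, where 48.1% of all tested probe sets were, with a median of -0.63. At an unadjusted p under 0.05, where 8.97% of all tested probe sets were lower, 1 passed. This was ECI2 1591650_s_at, which read 6.36, 7.89, 9.38 and 9.52 in DM dogs, against 10.24, 10.70, 10.33 and 10.24 in control dogs. The control dogs were close together and the DM dogs spread widely below them, and the log2 fold change was -2.09 (SE 0.73, limma adjusted p = 0.181). The brighter ECI2 probe set, 1604937_at, gave -0.39 (SE 0.54) with overlapping groups.

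The acyl-CoA thioesterases, which release free fatty acids from acyl-CoA, pointed both ways, with 5 probe sets higher and 6 lower. The brightest probe set of ACOT13, a mitochondrial thioesterase, read 8.92, 10.36, 8.07 and 10.41 in DM dogs, against 12.53, 12.09, 12.06 and 10.18 in control dogs. D8 lay inside the DM range, and the log2 fold change was -2.28 (SE 0.74, limma adjusted p = 0.158). ACOT7 gave 0.53 (SE 0.74) with its brightest probe set, 1584145_at, at 6.18, 7.50, 9.18 and 8.85 in DM dogs, against 8.03, 7.91, 6.69 and 6.97 in control dogs. ACOT9, another mitochondrial thioesterase, read 9.65, 4.62, 9.55 and 10.21 with 1589718_s_at in DM dogs, against 10.00, 9.74, 10.11 and 9.88 in control dogs. Its log2 fold change of -1.43 (SE 1.02) rested on dog 0294 and was -0.14 without it.

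Of the ketone body genes, ACAT1, the mitochondrial acetoacetyl-CoA thiolase, was clearest. Probe set 1591382_s_at read 8.85, 10.51, 9.09 and 10.94 in DM dogs, against 11.88, 12.08, 11.39 and 12.01 in control dogs. The groups did not overlap, with a log2 fold change of -1.99 (SE 0.64, limma adjusted p = 0.152), while its dimmer probe sets gave -0.75 and 0.23 with overlap. BDH1, the 3-hydroxybutyrate dehydrogenase, which was chosen after its values were seen, read 6.43, 7.06, 8.50 and 5.34 in DM dogs, against 9.38, 9.39, 9.05 and 6.97 in control dogs. D8 alone among the control dogs fell inside the DM range, and the log2 fold change was -1.87 (SE 0.79, limma adjusted p = 0.257). HMGCS1, which makes HMG-CoA for sterol synthesis in the cytosol, gave 0.01 and 1.15 with overlapping groups.

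Among genes of malonyl-CoA and fatty acid synthesis, SCD and MLYCD were lower and ACACA was higher. SCD, the stearoyl-CoA desaturase, was below every control dog in every DM dog with all 3 probe sets. Its probe set 1596205_at read 8.19, 8.44, 8.48 and 9.37 in DM dogs, against 11.01, 11.64, 10.86 and 9.53 in control dogs, a log2 fold change of -2.14 (SE 0.63, limma adjusted p = 0.129), and the other probe sets gave -3.01 and -1.27. MLYCD, the malonyl-CoA decarboxylase that removes the inhibitor of the carnitine shuttle, read 9.24, 10.42, 10.15 and 10.62 in DM dogs, against 12.43, 12.49, 11.78 and 11.27 in control dogs. The groups were again apart, with a log2 fold change of -1.88 (SE 0.60, limma adjusted p = 0.149).

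ACACA, the acetyl-CoA carboxylase that makes malonyl-CoA for fatty acid synthesis, was chosen after its values were seen. It read 8.38, 6.38, 7.09 and 8.53 in DM dogs, against 5.13, 5.58, 7.71 and 5.18 in control dogs, so that D7 overlapped the DM dogs. The log2 fold change was 1.70 (SE 0.75, limma adjusted p = 0.279), and 0.01 with the hybridization controls as scale.

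Of 4 lipid droplet probe sets, 2 were higher and 2 lower in DM dogs, 0 at an unadjusted p under 0.05. PLIN2, the droplet coat protein of heart and many other tissues, read 9.45, 10.83, 10.89 and 11.15 with its brightest probe set in DM dogs, against 10.00, 10.40, 10.32 and 10.50 in control dogs. Apart from 0292 the DM dogs were above the control dogs, yet the log2 fold change was 0.28 (SE 0.59, 95% interval -0.997 to 1.55) and turned negative under median centring (-0.43) and with the hybridization controls as scale. LIPE, the hormone-sensitive lipase, gave -0.67 (SE 0.63, limma adjusted p = 0.629), at 6.49, 7.43, 6.07 and 7.96 in DM dogs, against 7.57, 6.90, 8.11 and 8.03 in control dogs.

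Uncoupling proteins let protons or metabolites cross the inner mitochondrial membrane. UCP3, the form of heart and skeletal muscle, read 11.73, 10.62, 9.60 and 11.18 in DM dogs, against 11.44, 11.15, 11.02 and 11.22 in control dogs, a log2 fold change of -0.43 (SE 0.61, 95% interval -1.74 to 0.89). Dog 1087 was the lowest of all, and the value was -0.03 without it. UCP2, a widely expressed form, was lower with all 3 probe sets, at -0.45 to -1.51. Its probe set 1582916_at read 4.65, 5.42, 4.42 and 5.83 in DM dogs, against 5.33, 7.15, 5.48 and 8.40 in control dogs, with overlap at a dim signal (-1.51, SE 0.75, limma adjusted p = 0.335). UCP1, known from brown fat, read 9.97, 7.00, 5.59 and 8.15 with 1582660_at in DM dogs, against 7.75, 7.68, 6.01 and 7.98 in control dogs. The DM dogs lay on both sides of the control dogs, and its 3 probe sets gave -0.80 to 0.36.

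The PPAR receptors and coactivators were lower in 8 of 9 probe sets, where 48.1% of all tested probe sets were lower, with a median of -0.48. PPARA, the receptor most tied to fatty acid oxidation in heart, read 7.98, 8.47, 9.16 and 9.84 with its brightest probe set 1582441_at in DM dogs, against 9.93, 10.06, 10.26 and 11.14 in control dogs. All DM dogs were below all control dogs, 1111 only just, with a log2 fold change of -1.48 (SE 0.62, limma adjusted p = 0.252), while its 3 dimmer probe sets gave -0.48 to 0.58. PPARGC1A, which encodes PGC-1 alpha, read 5.26, 6.18, 5.94 and 5.52 with 1596366_at in DM dogs, against 6.97, 6.83, 6.87 and 6.84 in control dogs. The control dogs were nearly equal and the DM dogs lower, at -1.15 (SE 0.54, limma adjusted p = 0.305), but at a dim mean signal of 6.30 over the 8 dogs. Its other probe set gave -1.76 (SE 0.82), with DM dog 0294 above all control dogs.

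Probe sets of a gene did not always go the same way. Of 29 genes with more than 1 probe set, 13 were lower with all of them, 4 higher with all, and 12 had both signs. Among the 15 genes with 3 or more, 10 had both signs. In ACSL1, ACAT1 and ACOT13 the higher ones were all dimmer than the brightest lower one. In ACOT7, FABP1, PLIN2 and UCP1 the brightest probe set was itself a higher one. By gene, 15 had at least 1 probe set lower at an unadjusted p under 0.05, 6 had at least 1 higher and 29 had none. The matching share over all genes was not computed. Genes with more probe sets have more chances of a call, so these counts cannot be set against a background.

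**Figure D5:**
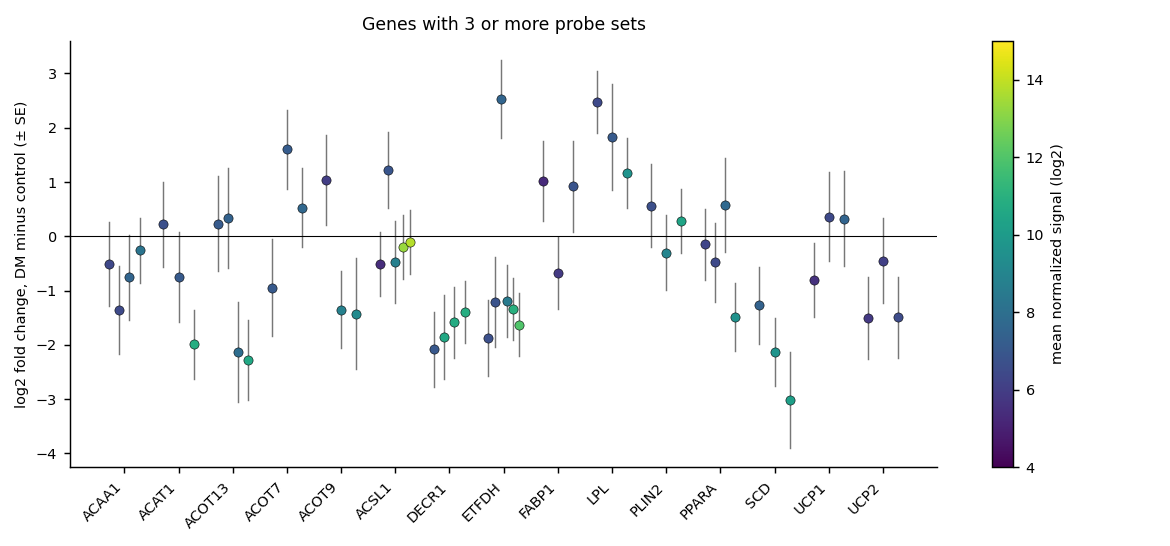
Log2 fold change, DM minus control, ± SE for each probe set of the 15 genes with 3 or more, coloured by mean normalized log2 signal over the 8 dogs and ordered by it within a gene. DECR1 and SCD lie below 0 and LPL above 0 with all their probe sets, while 1 probe set of ETFDH stands at 2.53 and its other 5 at -1.19 to -1.88. On the scale of the hybridization controls 2 of the 3 LPL probe sets turn negative.

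The dogs did not contribute equally. DM dog 0292 was the lowest of the DM dogs in 46 of 102 members, or 45.1%, against 29.8% of all tested probe sets, and it also had the highest hybridization controls and the lowest summed cardiomyocyte markers. Control dog D8 was the lowest control dog in 37 members, or 36.3%, against 34.8% of all tested probe sets, and in 14 of the 24 members that were lower in DM dogs. In those 24 its median difference from the mean of the other control dogs was -0.61. Without D8, 0292 and 1111 together, a choice made after the data were seen, 27 members were lower and 11 higher at an unadjusted p under 0.05, where 14.8% and 14.1% of all tested probe sets were. An adjusted p under 0.05 (limma) was then reached by 15 members, where 10.6% of all tested probe sets reached it.

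The choice of scale decided some directions. All 24 members that were lower at an unadjusted p under 0.05 stayed lower in the 5 scalings tried, which include the main one that selected them. On the scale of the hybridization controls 97 of 102 members were lower, so that scale could hardly turn a lower member higher. Of the 6 members higher at that p, LPL 1583006_at, ETFDH 1595599_at and ACACA stayed higher. FABP5, CD36 and ACOT7 1596827_at turned lower on the scale of the hybridization controls. That scale moved the median of all tested probe sets to -1.65, from which the median of the uptake and carrier genes, -0.92, lay 0.73 above. In the other scalings the uptake median lay 0.95 to 1.15 above the median of all probe sets.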

How the data were processed

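Left ventricular RNA of 8 dogs was hybridized to 1 array each. The authors summarised the scans to deposited signal intensities on a linear scale with MAS5, named in the submitters' processing notes, and scaled each array to a trimmed mean of 500. The methods also name RMA, which the deposited values do not show, and no presence calls were used. The number of arrays, 4 per group, limits the precision.

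The arrays were scaled again to a trimmed mean of 500 (2% removed at either end) and quantile normalized, 16 was added and log2 was taken. The 77 manufacturer controls were left out, and 23836 probe sets were fitted with limma 3.58.1 in R 4.3.3 (lmFit and eBayes, group only, two-sided) with Benjamini-Hochberg adjustment at a threshold of 0.05. The two-class test and fold criteria that the methods state were run on these normalized values too. Summed markers and hybridization controls were compared with an exact permutation test that ran through all 70 assignments. The steps were tested on simulated data. Figures were drawn with matplotlib 3.10.9.

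Symbols are those of the array annotation. Of the members, 94 had a gene identifier in the RefSeq table of assembly UU_Cfam_GSD_1.0, and no symbol changed. Of the 102 probe sets, 25 carry the mark _s_at and 6 the mark _x_at, which the manufacturer uses for probes shared by several transcripts, so reads of near-identical genes may be mixed. Coordinates were not used here.

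The members, roles, marker lists and tests were chosen with earlier results of these data known. Values of every dog are given, by rule, for the 3 genes with the largest change past the criteria of the methods in each role (or the smallest limma p where none passed), for genes with 3 or more probe sets of both signs, and for FABP3, CD36, LPL, CPT2, PPARA, ANGPTL4, UCP3, HADHA and ACADM. Other probe sets were chosen after their values were seen. The alternatives were other scalings, other offsets, array weights, an intensity trend with a robust prior, the methods' t-test, subsets of probe sets and leaving out dogs.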

Additional observations from a re-analysis of the deposited data

Results flagged for a closer look

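Over the 27 named probe sets each group of 4 dogs was checked for a dog far from the others by Dixon's ratio, and 4 of 54 groups had one, where chance gives about 1 in 20. For ANGPTL4, DM dog 0294 read 8.23 and the other DM dogs 9.11 to 9.18, and control dog D7 read 8.33 and the other control dogs 7.77 to 7.83. For ACOT9 probe set 1589718_s_at, DM dog 0294 read 4.62 and the other DM dogs 9.55 to 10.21. For UCP1 probe set 1582660_at, control dog D7 read 6.01 and the other control dogs 7.68 to 7.98.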

How the results depend on the processing

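No paired analysis was possible because the labels give the groups no shared replicate numbers. The 8 summaries of the members (counts at each threshold, counts without overlap and the median) were computed under the alternatives, and 136 values kept close to the main value while 43 did not. The count at an adjusted p under 0.05 (0) was 2 with median centring, 52 with the hybridization controls as scale, 4 with an offset of 64, 7 with array weights, 14 with an intensity trend and robust prior and 1 with 1 probe set per gene. It was 0 to 5 with 1 dog left out, 5 without DM dog 1111 and 2 without control dog D8, 4 without D8 and 0292, 5 without D8 and 1111, and 15 without D8, 0292 and 1111. The share of all tested probe sets past that threshold moved as well, from 0.0168% in the main setting to 1% with median centring. These counts alone therefore do not set the members apart. The count higher at an unadjusted p under 0.05 (6) was 2 with median centring, 0 with the hybridization controls and 3 of 49 with 1 probe set per gene, was 4 to 8 with 1 dog left out, and was 11 without D8, 0292 and 1111. The count lower at that p (24) was 71 with the hybridization controls and 14 of 49 with 1 probe set per gene, and was 16 to 27 with 1 dog left out.

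By the criteria of the methods, the higher count (3) was 1 with median centring, 5 with cyclic loess and 0 with the hybridization controls, and 2 to 4 with 1 dog left out. The lower count (11) was 20 with the hybridization controls, 6 with 1 probe set per gene and 7 without D8 and 0292, and 4 to 14 with 1 dog left out. The count of members with every DM dog above every control dog (4) was 2 with median centring, 0 with the hybridization controls, 2 with 1 probe set per gene, 14 without D8 and 0292, 8 without D8 and 1111 and 18 without all 3 of these dogs, and 4 to 8 with 1 dog left out. The count with every DM dog below (22) was 11 with median centring, 13 with 1 probe set per gene and 14 of the 71 probe sets without a mark and 38 without D8, 0292 and 1111, and 22 to 28 with 1 dog left out. The median log2 fold change (-0.49) was -0.26 without quantile normalization, -0.85 with median centring, -2.28 with the hybridization controls and -0.74 with no offset, and -0.61 to -0.45 with 1 dog left out. Subsets of probe sets test fewer members, and the scale of the hybridization controls moved the median of all tested probe sets to -1.65. The cause of the other differences was not tested.

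Of the named probe sets, ACADM turned to 0.56 without quantile normalization. With median centring PLIN2 turned to -0.43 and UCP1 1582660_at to -0.078, and with cyclic loess CPT2 turned to 0.13. With the hybridization controls as scale the log2 fold change was -0.55 for ACSL1 1598975_at, -0.64 for FABP5, -1.06 for CD36, -0.96 for ANGPTL4, -1.28 for ACOT7 1584145_at, -0.52 for FABP1 1583025_s_at, -2.23 for PLIN2 and -1.63 for UCP1. Without dog 0292 CPT2 was 0.18 and UCP1 -0.43, without D7 UCP1 was -0.16 (with 1 dog left out, -0.53 to 0.18 for CPT2 and -0.43 to 1.03 for UCP1), without D8 and 0292 CPT2 was 0.23 and UCP1 -0.22, and without D8, 0292 and 1111 CPT2 was 0.43 and UCP1 -0.82. Over all alternatives the adjusted p (limma) ran from 3.5e-04 to 0.278 for HADH and from 2.8e-04 to 0.278 for FABP3 1596802_at. Signals near the bottom of the scale, where an offset of 16 weighs most, limit what LPL 1583006_at, FABP1, UCP1, UCP2 and PPARGC1A can show.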

Other observations

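Of 60 further genes of lipid transport, storage, oxidation and their control, 26 were measured. In DM dogs 12 had higher and 14 lower values, with a median log2 fold change of -0.12, and the median was 0.19 without quantile normalization and -1.89 on the scale of the hybridization controls. At an unadjusted p under 0.05, 3 were higher and 3 lower, where 7.79% and 8.97% of all tested probe sets were. None had an adjusted p under 0.05 (limma). Values are given below for the genes picked for the lowest p in this list.

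HSD17B10, a mitochondrial 3-hydroxyacyl-CoA dehydrogenase of branched short chains, read 9.31, 5.06, 9.83 and 10.26 in DM dogs, against 12.58, 12.89, 12.52 and 10.85 in control dogs. The groups did not overlap, and the log2 fold change was -3.59 (SE 1.01, limma adjusted p = 0.118). PDK4, the kinase that turns off pyruvate dehydrogenase and so spares glucose when fatty acids are burned, read 14.42, 15.76, 15.79 and 16.20 in DM dogs, against 13.05, 13.11, 13.41 and 14.27 in control dogs. All DM dogs were above all control dogs, 0292 only just above D8, and the log2 fold change was 2.08 (SE 0.62, limma adjusted p = 0.130), or -0.02 on the scale of the hybridization controls.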
